A study of Mus musculus with 6 samples.

Results

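Complement is a set of plasma proteins, mostly made in the liver, with the regulators that hold it in check and the receptors that read it out. A list of 37 mouse complement genes was followed through liver RNA measured on 6 Affymetrix arrays, with 2 arrays in each of 3 groups. A gene was kept if a probe set carried its symbol alone in the platform annotation, and where several did, the one of highest mean would have been taken. By this rule 35 of the 37 genes had a probe set, 1 each, out of 19550 genes on the array with such a probe set. C3 and Cfd were not analysed here. Of the 35, 32 were bright enough to be tested (mean over the 6 arrays no lower than 0.185, the 25th percentile over genes), and Cd46, Itgam and Itgax were not.

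The study compared mice without the gene for SMP30/GNL, the gluconolactonase that mice need to make ascorbic acid (AA, vitamin C), with wild-type mice. All were males on a C57BL/6NCrSlc background and ate a diet lacking AA. The AA-deficient knockouts had this diet alone. The AA-supplemented knockouts drank water holding AA, kept stable with EDTA, in an amount said to keep tissue AA normal, and the wild-type mice drank plain water. The sources used here give neither the age of the mice nor whether the water of the other groups held EDTA. The groups are called deficient knockouts, supplemented knockouts and wild type from here on. The contrast of deficient with supplemented knockouts varies the supply at 1 genotype. Supplemented knockouts against wild type, labelled VC-deprived, varies the genotype and also the AA in the water. Deficient knockouts against wild type varies the genotype with no AA given to either group, and with it the making of AA. These comparisons share arrays, so their results are not independent of each other.

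Complement is switched on along 3 routes. C1q bound to antibody starts the classical route, mannose-binding lectins and ficolins start the lectin route, and the alternative route amplifies itself through C3 and factor B. All meet at C3 and C5, from which come the small peptides C3a and C5a, which act through receptors on myeloid cells, and the membrane attack complex of C5b to C9. Hepatocytes secrete most of the plasma components, while liver macrophages (Kupffer cells) make C1q and properdin and carry the receptor Vsig4, which clears C3-coated particles from blood.

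Values are in the log units of the deposited table, read as log10, and group values are means ± SD (n = 2). Any pair of arrays correlated at 0.945 or more over all probe sets, and array medians ran from 0.35 to 0.39. Rgn, the gene of SMP30/GNL, was at 2.03 ± 0.052 in wild type against 0.24 ± 0.14 in supplemented and 0.26 ± 0.049 in deficient knockouts. Which part of the gene was deleted, and whether the probes lie in it, is not known here. The hepatocyte markers Alb, Apoa1 and Apoa2 were measured at high values on all 6 arrays. The labels do not tell whether the arrays within a group stand for separate animals, so the p-values reflect only the spread of these samples, and that spread may be technical. Array 2 of the supplemented knockouts stood apart for most secreted complement members and also for hepatocyte markers. In bulk liver RNA, fewer cells of a type and less RNA per cell cannot be told apart.

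The clearest difference among the complement genes was in C5ar1, the C5a receptor. It was lowest in deficient knockouts, intermediate in wild type and highest in supplemented knockouts. C7, a part of the membrane attack complex, was higher in deficient knockouts than in the wild-type group. The other 30 members tested passed in no comparison. A gene passed at a Benjamini-Hochberg adjusted p under 0.05 over the 14662 genes tested, in limma with all 6 arrays in 1 fit. Between the knockout groups 1 of 32 members passed, where 0.205% of all genes tested did. It was lower in the deficient group, where 0.0409% of all genes passed as higher and 0.164% as lower, and 3 members had an unadjusted p under 0.05, against 9.92% of all genes. The split of 6 higher and 24 lower over all genes became 1 and 13 after quantile normalisation and 1 and 12 after cyclic loess. After median centring it was 14 and 43. In deficient knockouts against wild type 2 of 32 passed, against 4.63% of all genes. C7 was higher, as were 3.08% of all genes, and C5ar1 lower, as were 1.55%, and 5 members had an unadjusted p under 0.05, against 20.4% of all genes. In supplemented knockouts against wild type 0 of 32 passed in limma, against 0.00682% of all genes, and 4 members had an unadjusted p under 0.05, against 10.6% of all genes. With eBayes with a trend, and with a trend and robust fit, 1 member passed there, C5ar1.

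**Figure D1:**
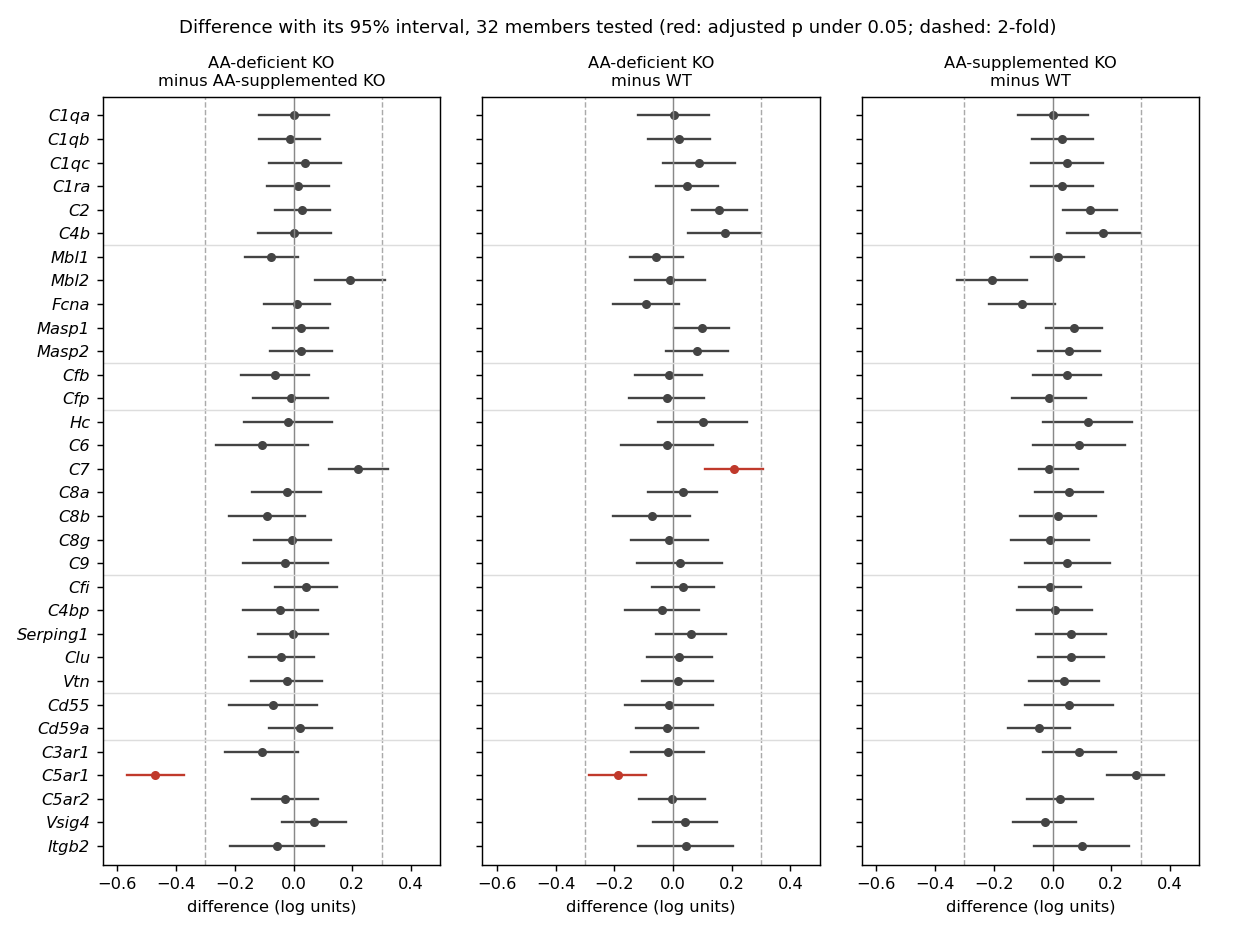
Difference between group means for the 32 members tested (points, deposited log units) with its 95% interval from limma (bars) in the 3 comparisons, ordered by role from classical pathway to receptors, with dashed lines at a 2-fold change on the log10 reading. Red marks the members that passed, C5ar1 between the knockouts, and C5ar1 and C7 in deficient knockouts against wild type; most other points lie close to 0.

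For most members the interval of the difference between these arrays lay within 2-fold, and for fewer within 1.5-fold. The intervals rest on 2 arrays per group whose spread may be technical, so they may not bound a change between animals. The 95% interval of the difference lay within 2-fold either way, on the log10 reading, for 29 of 32 members between the knockouts, for 31 in deficient knockouts against wild type and for 30 in supplemented knockouts against wild type. As shares of the members these were 90.6%, 96.9% and 93.8%. Over all genes tested the interval between the knockouts was as narrow for 13923 of 14662, and the shares against wild type were 90.9% and 95.3%. The median difference over the 32 members was -0.012 between the knockouts, 0.018 in deficient knockouts against wild type and 0.044 in supplemented knockouts against wild type, where all genes had medians of 0.00, -0.0034 and -0.0017. None of these medians held its size. Without supplemented array 2 the first was 0.016 and the last 0.0053, where all genes had 0.0067 and -0.0054. After quantile normalisation that of deficient knockouts against wild type was -0.0050, where all genes had -0.0135. Arrays of the groups did not overlap for 6 members between the knockouts, 3 higher and 3 lower in the deficient group, against 37.3% of all genes (19.8% higher and 17.5% lower). They did not overlap for 17 members in deficient knockouts against wild type, 12 higher and 5 lower, against 54.5% (27.6% and 26.9%). In supplemented knockouts against wild type they did not overlap for 10, 8 higher and 2 lower, against 38.6% (19.8% and 18.8%).

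The classical pathway begins with C1q, built of chains A, B and C, whose genes C1qa, C1qb and C1qc lie side by side on chromosome 4. They differed little. C1qa had group means of 0.91 in all 3 groups, and C1qb was at 1.39 ± 0.059 in deficient knockouts, 1.40 ± 0.024 in supplemented knockouts and 1.37 ± 0.014 in wild type. C1qc was at 1.14 and 1.22 on the deficient arrays, 1.201 and 1.08 on the supplemented arrays and 1.08 and 1.10 in wild type. Its deficient arrays lay above both wild-type arrays, and its supplemented arrays overlapped both groups (difference of deficient knockouts from wild type 0.090, SE 0.053, adjusted p = 0.399 in limma). C1ra, a serine protease bound to C1q, had differences between 0.0144 and 0.0465. All 6 members of the route had higher means in both knockout groups than in wild type (medians 0.068 and 0.042), and 0 of 6 passed. Without supplemented array 1 the differences of C1qa and C1qc in that group turned to -0.059 and -0.011.

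C2 and C4b, the proteins that C1s and Masp2 cut to form the C3 convertase, were higher in both knockout groups than in wild type without passing. C2 had values of 1.36 and 1.39 in deficient knockouts, 1.325 and 1.36 in supplemented knockouts and 1.22 and 1.21 in wild type. All 4 knockout arrays lay above both wild-type arrays and the knockout groups overlapped. The difference from wild type was 0.16 (SE 0.041, adjusted p = 0.0683) in deficient and 0.13 (SE 0.041, adjusted p = 0.351) in supplemented knockouts. C4b read 1.905 and 1.97 in deficient knockouts, 1.88 and 1.995 in supplemented knockouts and 1.73 and 1.79 in wild type. Again every knockout array was above the wild-type pair. Its difference was 0.18 (SE 0.054, adjusted p = 0.113) in deficient and 0.17 (SE 0.054, adjusted p = 0.344) in supplemented knockouts. C2 passed in deficient knockouts against wild type with a filter at the 50th percentile (adjusted p = 0.0346), with a trend (adjusted p = 0.0138) and with a trend and robust fit (adjusted p = 0.00997), and C4b only with the last of these (adjusted p = 0.0439). Without supplemented array 1 the difference of C4b in that group was 0.23, and without array 2 it was 0.11 (adjusted p = 0.176 and 0.539). C2 and C4b lie near each other on chromosome 17, with Cfb next to C2.

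Mouse liver also transcribes C4a, a near copy of C4b known as sex-limited protein, which was no member of the list but shares much of its sequence. How far its probes also read C4b, or the reverse, is not known here. C4a was at 0.88 and 0.98 in deficient knockouts, 1.198 and 1.24 in supplemented knockouts and 1.05 and 1.13 in wild type. The 3 groups did not overlap, and deficient knockouts were lowest. Its difference was -0.29 (SE 0.051, adjusted p = 0.104) between the knockouts, -0.16 (SE 0.051, adjusted p = 0.127) in deficient knockouts against wild type and 0.13 (SE 0.051, adjusted p = 0.427) in supplemented knockouts against wild type. C4b minus C4a on the same array was 1.02 and 0.99 in deficient knockouts, 0.68 and 0.76 in supplemented knockouts and 0.685 and 0.66 in wild type. It was larger on both deficient arrays than on the other 4. This pair was chosen after its values were seen, and the difference within arrays was not tested.

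**Figure D2:**
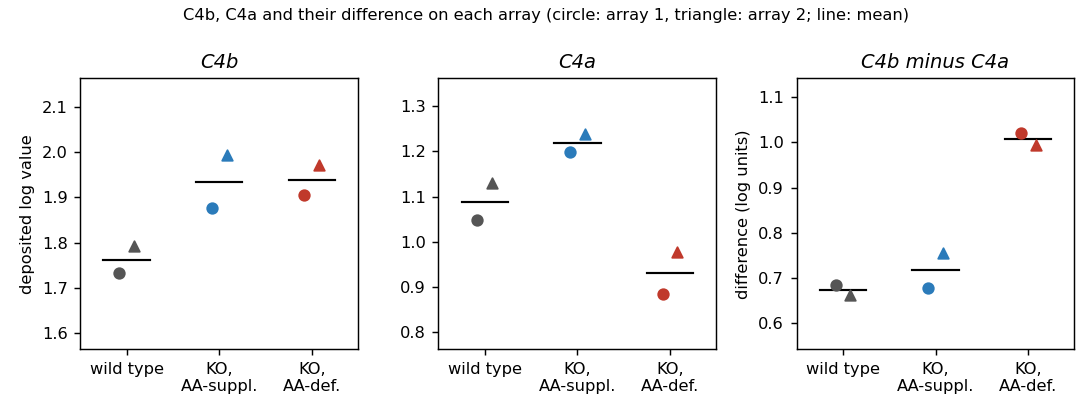
C4b, C4a and C4b minus C4a on each array in deposited log units, by group (circle array 1, triangle array 2, line the group mean). The difference was 0.99 and 1.02 in deficient knockouts and between 0.66 and 0.76 on the other 4 arrays.

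In the lectin pathway no member passed. Mbl1 and Mbl2 encode mannose-binding lectins, which bind sugars on microbes. Mbl2 was at 1.22 and 1.16 in deficient knockouts, 1.06 and 0.935 in supplemented knockouts and 1.21 and 1.19 in wild type. Both supplemented arrays lay below the other 4, and deficient knockouts overlapped wild type. The difference was 0.19 (SE 0.052, adjusted p = 0.237) between the knockouts and -0.21 (SE 0.052, adjusted p = 0.235) in supplemented knockouts against wild type. Mbl1 stayed between 1.48 and 1.57 on all arrays. Fcna, the ficolin of macrophages, read 0.86 and 0.89 in deficient knockouts, 0.92 and 0.81 in supplemented knockouts and 0.975 and 0.96 in wild type. All 4 knockout arrays lay below the wild-type pair (difference -0.093, SE 0.048, adjusted p = 0.334 in deficient knockouts).

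Masp1 and Masp2 are the proteases that travel with these lectins. Masp1 was at 1.64 and 1.66 in deficient knockouts, 1.60 and 1.65 in supplemented knockouts and 1.54 and 1.56 in wild type. The 4 knockout arrays were above wild type, with a difference of 0.098 (SE 0.041, adjusted p = 0.224) in deficient and 0.073 (SE 0.041, adjusted p = 0.578) in supplemented knockouts. Masp2 had differences of 0.082 and 0.057 from wild type in the same order, the latter 0.016 without supplemented array 2. Of the 5 lectin pathway members, 0 passed in limma in any of the 3 comparisons, and 1 had an unadjusted p under 0.05 in each. Over all genes that share was 9.92% between the knockouts, 20.4% in deficient and 10.6% in supplemented knockouts against wild type. Beyond the member list, the scavenger lectin Colec12 rose in deficient knockouts against wild type by 0.20 (SE 0.043, adjusted p = 0.0433). It read 1.05 and 1.11 there, 0.997 and 0.955 in supplemented knockouts and 0.87 and 0.88 in wild type, with no overlap between groups. Its call is that of the main fit, and not all calls outside the members held on leaving out a wild-type array.

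Of the alternative pathway, Cfb and Cfp were measured, and neither passed. Cfb, the factor B that forms the amplifying convertase, was at 1.81 and 1.87 in deficient knockouts, 1.85 and 1.96 in supplemented knockouts and 1.87 and 1.84 in wild type. Cfp, or properdin, which stabilises that convertase, read 1.13 and 1.25, 1.25 and 1.15, and 1.21 on both arrays in the same order. Their groups overlapped in every comparison, and the smallest adjusted p was 0.786.

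Of the terminal components that build the membrane attack complex, C7 was the member that changed (gene at chr15:4987750-5063773, GRCm38.p6). It was at 0.45 and 0.38 in deficient knockouts, 0.20 and 0.19 in supplemented knockouts and 0.19 and 0.225 in wild type. Both deficient arrays lay above the other 4, and the other groups overlapped. C7 rose against wild type by 0.21 (SE 0.043, adjusted p = 0.042). Against supplemented knockouts the difference was 0.22 (SE 0.043, adjusted p = 0.125), and between supplemented knockouts and wild type it was -0.013 (SE 0.043, adjusted p = 0.945). C7 was dim: its mean over the 4 arrays of the other groups was 0.20, just above the filter at 0.185 and below Rgn in the knockouts. That level was not shown to be above background, so no fold is given. The call against wild type was lost without either deficient array (adjusted p = 0.231 and 0.134), without either wild-type array (0.247 and 0.166), without a filter (0.0901), after quantile normalisation (0.0517) and after median centring (0.0597).

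The promoter of C7 is shown because C7 is one of the members that passed. The window runs from 250 bases before to 50 after the annotated start, RefSeq, GRCm38.p6, chr15:5063724-5064023, minus strand. Capitals mark TTCNNNGAA, a pattern bound by STAT factors, and TATAAA, the pattern of a TATA box, found here as its reverse complement TTTATA. This match begins at -6 from the annotated start, and whether it acts as a TATA box was not tested.
C7: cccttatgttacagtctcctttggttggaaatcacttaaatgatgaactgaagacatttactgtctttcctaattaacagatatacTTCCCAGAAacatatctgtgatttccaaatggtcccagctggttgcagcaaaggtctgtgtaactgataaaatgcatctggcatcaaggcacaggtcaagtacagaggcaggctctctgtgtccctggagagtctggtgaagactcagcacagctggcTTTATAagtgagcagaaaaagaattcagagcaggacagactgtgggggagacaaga
TATAAA was found on either strand in 13.6% of the 32851 promoter windows of this length and TTCNNNGAA in 8.3%.

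The remaining terminal genes did not pass. Hc, the gene of C5, was at 1.99 and 2.055 in deficient knockouts, 1.945 and 2.14 in supplemented knockouts and 1.91 and 1.94 in wild type. The deficient arrays lay above wild type, and the supplemented arrays spanned the deficient ones (differences from wild type 0.10, SE 0.065, adjusted p = 0.444, and 0.12, SE 0.065, adjusted p = 0.57). The latter was 0.021 without supplemented array 2 and 0.22 without array 1. C6 read 1.64 and 1.72, 1.69 and 1.89, and 1.69 and 1.71 in the same order, so that 1 supplemented array stood above the other 5. Without it the difference of supplemented knockouts from wild type was -0.013 in place of 0.089. C8a, C8b and C8g, the chains of C8, and C9, which forms the pore, had differences between -0.0905 and 0.0559 over the 3 comparisons.

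Regulators in plasma showed no difference that passed. Clu, or clusterin, was at 1.985 and 1.99 in deficient knockouts, 1.97 and 2.08 in supplemented knockouts and 1.98 and 1.95 in wild type. Serping1, the C1 inhibitor, read 2.09 and 2.10, 2.03 and 2.16, and 2.05 and 2.02 in the same order. Both had their highest value on supplemented array 2, and the deficient pair lay above wild type. Cfi, the protease that degrades C3b and C4b, was at 1.80 and 1.82, 1.72 and 1.81, and 1.78 and 1.77. Vtn and C4bp, a blocker of the attack complex and a cofactor of Cfi, had differences between -0.045 and 0.039. Over these 5 genes the smallest adjusted p was 0.574.

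Membrane regulators protect host cells. Cd55, which breaks up convertases, was at 0.59 and 0.62 in deficient knockouts, 0.75 and 0.595 in supplemented knockouts and 0.555 and 0.68 in wild type. Cd59a, which blocks the attack complex, read 1.62 and 1.56, 1.57 and 1.56, and 1.65 and 1.57 in the same order. The groups of both overlapped in every comparison. Cd46, which in mice is known mainly from testis, lay between -0.03 and 0.15 and was below the filter.

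Among the receptors, C5ar1 (gene at chr7:16246743-16259540, GRCm38.p6) was at 0.21 and 0.19 in deficient knockouts, 0.64 and 0.70 in supplemented knockouts and 0.37 and 0.40 in wild type. The 3 groups did not overlap. C5ar1 fell in deficient against supplemented knockouts by 0.47 (SE 0.042, adjusted p = 0.0193), and against wild type by 0.19 (SE 0.042, adjusted p = 0.048). Its deficient mean of 0.20 lay close to the filter and below Rgn in the knockouts and was not shown to be above background, so no fold is given for these differences. In supplemented knockouts it was 0.28 above wild type (SE 0.042, 1.92-fold, adjusted p = 0.135), which did not pass. The direction was kept on leaving out any array, with differences between the knockouts of -0.50 to -0.44. The call between the knockouts held without supplemented array 1 (adjusted p = 0.0178) and was lost without supplemented array 2 (0.0701), either deficient array (0.0621 and 0.0551) or either wild-type array (0.0704 and 0.0712). Against wild type it was lost without either deficient array (0.177 and 0.27) or wild-type array (0.22 and 0.235). Without a filter on dim genes the adjusted p was 0.0754 between the knockouts and 0.0986 against wild type, with only the 4 arrays compared it was 0.0719 between the knockouts, and with a trend 0.0555 against wild type. With the replicate block both calls of C5ar1 were lost, as was that of C7.

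The promoter of C5ar1, on chromosome 7 next to C5ar2, is shown because this gene carried the main difference. The window is RefSeq, GRCm38.p6, chr7:16259289-16259588, minus strand, with capitals on CCAAT, the CCAAT box, found here as its reverse complement ATTGG. The annotated start used for this window lies inside the gene span given above, whose upstream end is 16259540. Most of the window, with the ATTGG, thus lies within that span.
C5ar1: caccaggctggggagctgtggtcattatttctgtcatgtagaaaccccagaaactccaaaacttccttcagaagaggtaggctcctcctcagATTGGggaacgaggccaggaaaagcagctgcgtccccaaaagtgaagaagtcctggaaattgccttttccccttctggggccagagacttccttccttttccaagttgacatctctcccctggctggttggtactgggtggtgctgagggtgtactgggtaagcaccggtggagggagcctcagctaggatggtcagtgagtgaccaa
CCAAT was found on either strand in 37.4% of the windows. TATAAA, TTCNNNGAA, TTGCNNAA (a C/EBP pattern) and AGAACA (a steroid receptor pattern) were not in these letters, and the last pair, in 10.8% and 19.0% of windows, was not in the C7 window either.

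**Figure D3:**
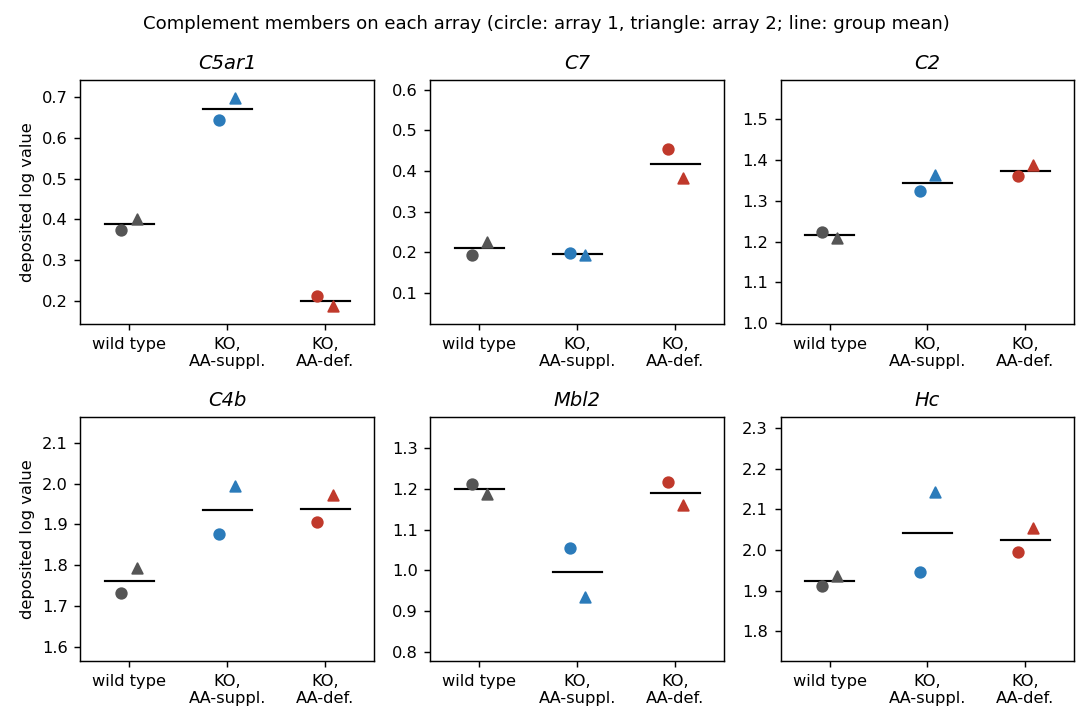
Values of 6 members on each array in deposited log units, by group (circle array 1, triangle array 2, line the group mean), with axes of equal span. C5ar1 separates all 3 groups, C7 is high on both deficient arrays, C2 and C4b are low in wild type, Mbl2 is low in supplemented knockouts, and the supplemented arrays of Hc lie far apart.

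The other receptors differed less. C5ar2, another C5a receptor and the neighbour of C5ar1, was between 0.77 and 0.87 on all arrays, with differences of -0.0292, -0.0037 and 0.0255 in the 3 comparisons. C3ar1, the C3a receptor, read 0.44 and 0.50 in deficient knockouts, 0.64 and 0.52 in supplemented knockouts and 0.46 and 0.52 in wild type. Its deficient arrays lay below the supplemented ones (difference -0.11, SE 0.054, adjusted p = 0.575, and -0.047 without supplemented array 1). Vsig4 was at 1.37 and 1.42, 1.365 and 1.29, and 1.33 and 1.38 in the same order, with a smallest adjusted p of 0.686.

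Itgam, Itgax and Itgb2 encode the chains of the complement receptors CR3 and CR4. Itgam was dim, at 0.085 and 0.14 in deficient knockouts, 0.21 and 0.29 in supplemented knockouts and 0.18 and 0.16 in wild type, and its groups did not overlap in any comparison. Tested without a filter, the difference between the knockouts was -0.14 (SE 0.048, adjusted p = 0.53). Itgax was also below the filter, with -0.015 and 0.14, 0.165 and 0.26, and 0.084 and 0.105 (difference between the knockouts -0.15, SE 0.063, adjusted p = 0.621 without a filter). Itgb2, their shared beta chain, overlapped between the knockout groups, at 0.30 and 0.52 against 0.51 and 0.42.

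C5ar1 is carried by neutrophils, monocytes and macrophages, so marker lists of these cells were set beside it. Of 15 Kupffer cell and macrophage genes, among them Clec4f, Timd4 and Cd5l, 15 were measured and tested. Between the knockouts 0 passed in limma and 3 had an unadjusted p under 0.05, against 9.92% of all genes. In deficient knockouts against wild type 1 rose (Slc40a1, by 0.21, SE 0.043, adjusted p = 0.0418, named here because it passed), where 3.08% of all genes passed as higher. The summed level of the 15 genes on the log10 reading was 145 to 171 in deficient knockouts, 132 to 161 in supplemented knockouts and 139 to 144 in wild type. Of 14 neutrophil genes, among them S100a8, S100a9 and Ly6g, 8 lay below the filter (S100a8, Ly6g, Camp, Ngp, Mmp8, Mmp9, Cxcr2 and Mpo). Of the other 6, 0 passed in limma, with 2, 1 and 2 at an unadjusted p under 0.05 in the 3 comparisons, against 9.92%, 20.4% and 10.6% of all genes. The sum of the 14 was 96.4 to 110.0 in deficient knockouts, 132 to 211 in supplemented knockouts and 150.0 to 159 in wild type. Without Lrg1, which hepatocytes also express, it was 17.1 to 17.9, 20.1 to 23.4 and 19.8 to 21.1. The first sum was thus mostly Lrg1, and 8 of the 13 genes in the second lay below the filter, so neither is a clear neutrophil level. Both sums were lowest in deficient knockouts, as C5ar1 was. They overlapped between supplemented knockouts and wild type, where C5ar1 did not. Of the 6 neutrophil genes tested, 4 were lower and 2 higher in deficient than in supplemented knockouts. The part of neutrophils in the C5ar1 result was not tested. Of 10 monocyte genes, among them Ccr2 and Plac8, 7 were measured and 3 of these lay below the filter. Their sums of 14.8 to 19.5, 18.4 to 22.5 and 16.2 to 18.7 overlapped between deficient and both other groups. Over the 12 cell type lists, the only other gene that passed was Stab2, of sinusoidal endothelium, which rose in deficient knockouts against wild type by 0.24 (SE 0.045, adjusted p = 0.032). The calls of Slc40a1 and Stab2 are those of the main fit.

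Several complement genes are also acute phase genes, which the liver makes in inflammation. Of 27 acute phase genes tested, among them Saa1, Saa2 and Saa3, 27 had lower means in deficient than in supplemented knockouts (median -0.15), 1 of which passed (Steap4), where 7328 of 14662 genes were lower. Without a filter on dim genes 0 genes passed in this comparison, so this call of Steap4 was lost. Without supplemented array 2 the lower means were 20 of 27 (median -0.093). In deficient knockouts 22 had lower means than in wild type (median -0.083), where 7549 of 14662 genes did. Of these 22, 3 passed (Saa2, Lcn2 and Steap4), where 1.55% of all genes passed as lower. In supplemented knockouts 25 had higher means than in wild type (median 0.085), where 7197 of 14662 genes did. In this comparison 0 passed in limma and 5 had an unadjusted p under 0.05, against 10.6% of all genes. Without array 2 the higher means were 12 of 27 (median -0.0078). This list was drawn up with earlier results of these data known, and its direction is no independent evidence. The 18 complement members that hepatocytes mainly secrete had 7 higher and 11 lower between the knockouts (median -0.012), and 12 higher and 6 lower in deficient knockouts against wild type (median 0.027). Crp and Apcs, pentraxins that bind C1q and are acute phase proteins, differed between deficient and supplemented knockouts by -0.13 and -0.27 (adjusted p = 0.456 and 0.428), or by -0.061 and -0.14 without supplemented array 2. Apcs differed from wild type by -0.45 in deficient knockouts (SE 0.102, adjusted p = 0.051), which did not pass.

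Supplemented array 2 stood apart in most secreted members and also in the hepatocyte markers. It was the highest of the 6 arrays for 13 of 18 secreted members, against 22.1% of all genes tested, and higher than array 1 of its group for 16 of 18 (median 0.11), against 50.1% of all genes. Of 14 hepatocyte markers, 14 were higher on array 2 than on array 1. Without this array the difference of deficient from supplemented knockouts was above 0 for 15 of 18 (median 0.048), and without array 1 for 4 of 18 (median -0.077). In supplemented knockouts against wild type 15 of 18 were higher (median 0.050), but 8 of 18 without array 2 (median -0.0048) and 17 of 18 without array 1 (median 0.10). The direction of the secreted list between the knockouts thus turned with the choice of 1 array. Its shift in supplemented knockouts against wild type was lost without array 2, where all genes had a median of -0.0054. What sets array 2 apart was not tested. Differences of deficient knockouts from wild type do not use the supplemented arrays, but their SE and p do, through the spread shared in 1 fit.

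The 12 members known from myeloid cells, 10 of them tested, gave other counts. Supplemented array 2 was highest for 4 of 12 and lowest for 4. Of the 10 tested, 4 had a difference above 0 between the knockouts (median -0.012), 1 of 10 without array 2 (median -0.051) and 6 of 10 without array 1 (median 0.023). C5ar1 was the member of this class that passed, and its supplemented values of 0.64 and 0.70 both stood above the other 4 arrays.

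**Figure D4:**
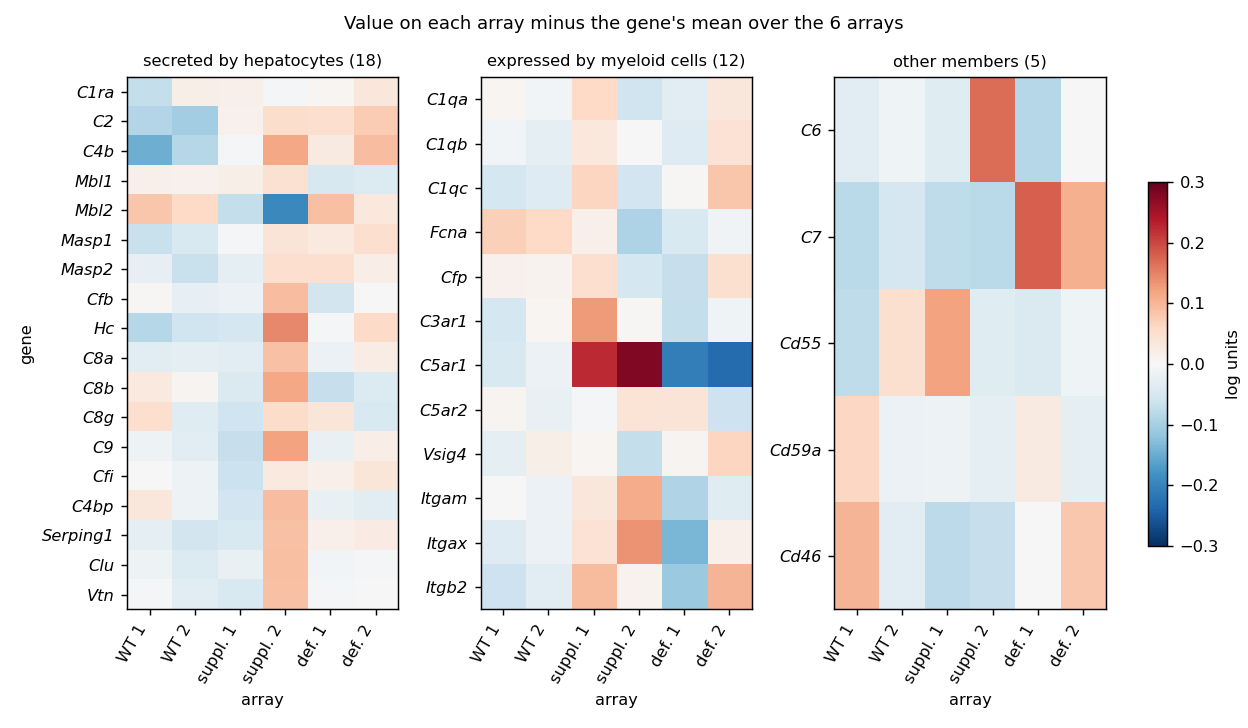
Value on each array minus the mean of the gene over the 6 arrays, in deposited log units, for the 18 members secreted mainly by hepatocytes, the 12 known from myeloid cells and the other 5. Red is above the mean and blue below; supplemented array 2 is the highest array for 13 of the 18 secreted members, and C5ar1 has the strongest contrast.

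Beyond the members, a list of 29 other complement genes had 23 measured and 21 tested. Between the knockouts 0 of 21 passed in limma and 5 had an unadjusted p under 0.05, against 9.92% of all genes. In deficient knockouts against wild type 1 rose (Colec12) and 0 fell, against 4.63% of all genes passing, and 5 had an unadjusted p under 0.05, against 20.4%. In supplemented knockouts against wild type 0 passed and 2 had an unadjusted p under 0.05, against 10.6%. Of smallest p between the knockouts were C4a, Cd93, a receptor of myeloid and endothelial cells, at -0.16 (SE 0.061, adjusted p = 0.417, and -0.090 without supplemented array 2), and Apcs. In supplemented knockouts against wild type they were C4a, Colec12 and Susd4, a complement inhibitor of the sushi domain family. Susd4 read 1.27 and 1.26 in deficient knockouts, 1.25 and 1.35 in supplemented knockouts and 1.09 on both wild-type arrays. All 4 knockout arrays were above wild type, by 0.18 (SE 0.047, adjusted p = 0.0702) and 0.22 (SE 0.047, adjusted p = 0.19). C1s2, a C1s gene picked out after its values were seen, had the same order of group means as C2, at 1.34 ± 0.0038, 1.29 ± 0.013 and 1.23 ± 0.0028 (adjusted p = 0.142 in deficient knockouts against wild type).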

How the data were processed

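Per the labels' protocols, total liver RNA was extracted with ISOGEN and labelled with an Affymetrix whole-transcript terminal labelling kit. The deposited table holds log values, read as log10 because they span 1213-fold on that base and 8.48-fold on log2. How the authors corrected, summarised and normalised them is not stated in the sources used here, and folds depend on the base. Of 30765 probe sets with a value, 21161 had 1 gene symbol, 1150 several and 8454 none. No detection call was used, so dim values cannot be told from background, and the number of arrays limits precision.

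Group differences came from limma (version 3.58.1, under R 4.3.3), by lmFit, contrasts.fit and eBayes over all 6 arrays together (3 residual and 4.89 prior degrees of freedom), two-sided, and the fit was tested on simulated data. Alternatives were other scalings, filters, moderation, probe set rules, subsets of arrays and a replicate block. The members, gene lists, roles and tests were chosen with earlier results of these data known. Array values are printed for members that passed and the 3 of smallest p in each of 7 roles. Promoters of 26 of 35 members were in the RefSeq table.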

Additional observations from a re-analysis of the deposited data

How the results depend on the processing

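Results were computed under 17 alternatives. Between the knockouts 1 member passed, and 0 did without a filter on dim genes, with only the 4 arrays compared and with the replicate block (0 to 1 on leaving out single arrays). In AA-deficient knockouts against wild type 2 passed, with 1 after quantile normalisation, 1 after median centring, 0 without a filter, 0 with the replicate block and 4 with a trend and robust fit (0 to 2 on leaving out single arrays). In AA-supplemented knockouts against wild type 0 passed, but 1 with a trend and 1 with a trend and robust fit (0 to 0 on leaving out single arrays). Of 966 values of named members under alternatives, 936 kept their side of the threshold, 23 lost it and 7 gained it, all in C2, C4b, C5ar1 and C7, and none of those called turned direction. Sign differed for 39 that passed in neither fit. C7 was not tested with a filter at the 50th percentile.

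The numbers do not pair the arrays in the same way across the 3 groups. Deviations of same-numbered arrays correlated at 0.36 for AA-deficient knockouts with wild type. They correlated at -0.37 between the knockouts and -0.28 for AA-supplemented knockouts with wild type. With the numbers of the AA-supplemented knockouts crossed, an alternative chosen after seeing the data, 1, 3 and 0 members and 75, 1561 and 1 genes passed in the 3 comparisons, against 4, 163 and 3 genes with the block as numbered. All genes past the threshold, 30, 679 and 1, became 14, 744 and 1 after quantile normalisation, 57, 533 and 8 after median centring, 13, 822 and 1 after cyclic loess, 0, 173 and 1 without a filter, 51, 1057 and 1 at the 50th percentile, 0, 1035 and 2 with only the 4 arrays compared, 154, 1271 and 94 with a trend, and 177, 1312 and 116 with a trend and robust fit. On leaving out single arrays they ran from 0 to 46, 1 to 1067 and 1 to 7. The causes of these shifts were not tested. The calls of Colec12, Slc40a1, Stab2, Saa2, Lcn2 and Steap4 are those of the main fit. Against wild type they did not all hold on leaving out single arrays. C5ar1 and C7 lay near the dim end of the array, which limits both.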
